A study of Mus musculus with 2 samples.

Results

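The 9 genes described here move and hold iron in the cell: the transferrin receptor Tfrc and the metal transporter Slc11a2 (uptake), the ferritin heavy and light chains Fth1 and Ftl1 (storage), Ncoa4 and Hmox1 (release of iron from ferritin and from heme), the iron regulatory proteins Aco1 and Ireb2 (sensing) and the mitochondrial carrier Slc25a37. They were chosen by name as the iron handling genes and matched to the gene symbols of the deposited matrices; all 9 were found among 27998 genes listed. The study compared CD8 T cells under transient glucose restriction (TGR, 1 mM glucose) with control cells (11 mM glucose), each as 1 droplet single-cell library. Cells of both libraries came from OT-I mice of 8 to 12 weeks, whose T cells carry a transgenic receptor for the ovalbumin peptide SIINFEKL; the tissue label names spleen, and the design text adds lymph nodes. Both cultures were activated with that peptide for 48 h in serum-containing medium with glutamine, beta-mercaptoethanol and 100 U/ml human IL-2, moved to an expansion medium with 11 mM glucose and IL-2, and then kept for 20 h in their final condition. The sample descriptions give the time before that exposure as 3 days. The number of mice behind each library is not stated in the labels.

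With 1 library per condition no difference has a replicate check, and no p-value is given. A level is the sum of unique molecular identifiers (UMIs, 1 per captured RNA molecule) of a gene over the kept cells per 1000000 UMIs (CPM). Intervals in brackets are 95% counting intervals, exact for Poisson sums and binomial shares, and cover counting error only. Kept cells had at least 500 genes and under 10% mitochondrially encoded UMIs: 2546 of 2548 barcodes in the TGR library and 3127 of 3336 in the control library, holding 19696068 and 14730128 UMIs. The TGR library was the deeper one, with a median of 6266 UMIs per cell against 4030 in control cells, and the median cell gave 50.3% of its UMIs to ribosomal protein genes in TGR and 40.4% in control. All TGR cells and 99.6% of control cells held a UMI of Cd3d, Cd3e, Cd3g, Cd8a, Cd8b1 or Lck. At least 2 UMIs of other cell types' markers were seen in 210 TGR and 97 control cells, each of which also held a UMI of those 6 genes. Since all but 11 control cells and every TGR cell held such a UMI, this cannot show that other cell types were absent. The libraries shared 11 cell barcodes, and leaving those cells out did not change which of the 9 genes passed the fold limit.

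Cells take up iron when TfR1, the product of Tfrc, binds transferrin and carries it into endosomes, from which the transporter encoded by Slc11a2 (DMT1) moves iron into the cytosol. Iron that is not used is stored in ferritin, a shell of heavy chains that oxidise iron and light chains that help it mineralise. When iron is scarce the iron regulatory proteins bind hairpins called iron-responsive elements, which protects the Tfrc message through its 3′ untranslated region and blocks translation of ferritin messages through their 5′ untranslated regions. T cells raise transferrin receptor when they are activated and need it to proliferate.

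The hairpins are shown because they are the feature by which Tfrc and the ferritin chains are tied to the same sensors. Transcripts of the mouse GENCODE M21 annotation (GRCm38) were searched on their own strand for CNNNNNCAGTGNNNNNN with all 5 bases before the loop able to pair with the 5 after it, G-T pairs allowed. Tfrc, Fth1 and Ftl1 held matches and the other 6 members held none. That says only that no stretch of their annotated transcripts met both the letters and the pairing rule. An element whose 5 pairs are not all formed would be missed. Over 21493 protein-coding genes, taking each gene's longest transcript, 1.25% held a match anywhere and 0.637% held one in an untranslated region. Capitals mark the 6-base loop, and the 4 Tfrc matches lie in its 3′ untranslated region, while the Fth1 and Ftl1 matches lie in the 5′ untranslated region.
Tfrc, chr16:32631220-32631246, plus strand: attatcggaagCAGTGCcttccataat
Tfrc, chr16:32631599-32631625, plus strand: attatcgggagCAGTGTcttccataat
Tfrc, chr16:32631664-32631690, plus strand: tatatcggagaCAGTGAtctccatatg
Tfrc, chr16:32631711-32631737, plus strand: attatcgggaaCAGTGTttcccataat
Fth1, chr19:9982733-9982759, plus strand: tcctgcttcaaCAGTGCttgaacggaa
Ftl1, chr7:45459780-45459806, minus strand: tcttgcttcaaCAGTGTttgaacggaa

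TGR cells held far fewer transferrin receptor messages than control cells, more ferritin light chain and Hmox1 messages, and close to the same level of ferritin heavy chain. A gene was called when it reached 10 CPM in either library, differed at least 1.5-fold and had an interval that excluded equality. By that rule 5 of the 9 members could be called, 1 was lower (Tfrc) and 2 were higher (Ftl1, Hmox1). Hmox1 reached 10 CPM in TGR alone, so it could be called higher but not lower. Over all 6667 genes that reached 10 CPM, 31.2% were called, 21.8% as lower and 9.33% as higher in TGR, and the median log2 ratio was -0.16. Aco1, Ireb2, Ncoa4 and Slc25a37 stayed under 10 CPM in both libraries.

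**Figure D1:**
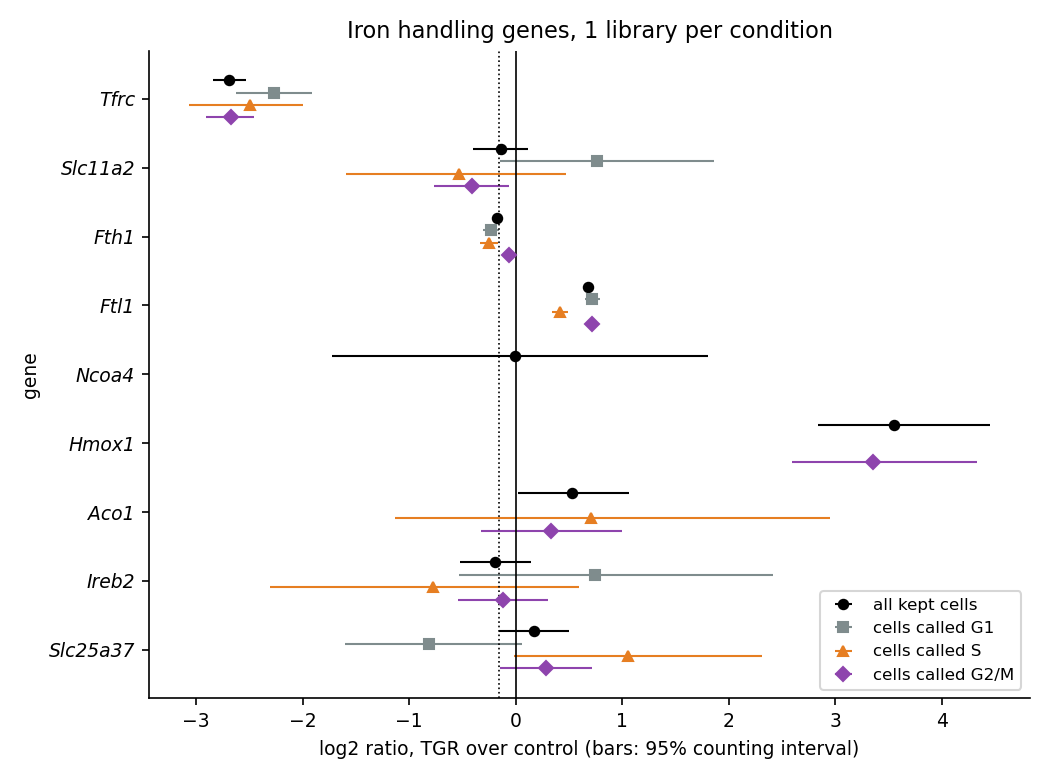
Log2 ratio of each iron handling gene, TGR over control, in all kept cells and in cells called G1, S or G2/M, with 95% counting intervals; points with fewer than 4 UMIs in either library are left out, and the dotted line is the median of all genes at 10 CPM or more. Tfrc lies between -2.69 and -2.27 in every set of cells, Ftl1 between 0.41 and 0.72, and Hmox1 at 3.56 in all cells.

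Tfrc (ENSMUSG00000022797, chr16:32608920-32632794, plus strand) was at 21.1 CPM in the TGR library (415 UMIs) and 136 CPM in the control library (2004 UMIs). That is 6.45-fold lower in TGR (5.81 to 7.19), a log2 ratio of -2.69. A Tfrc UMI was found in 13.6% of TGR cells (12.3 to 15.02%) and 37.6% of control cells (35.9 to 39.3%), although TGR cells were the more deeply sampled. With every cell thinned to 1500 UMIs the shares were 3.10% and 15.7%. No cell type that should lack Tfrc was identified in these cultures to set the share that free RNA alone would give. The cell with most Tfrc held 4 UMIs in TGR and 8 in control.

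Tfrc hardly varied with cycle state and UMIs per cell in TGR, and it did in control. Phases were called per cell from S and G2/M gene lists on thinned counts. G1 took 56.0% of TGR cells and 9.26% of control cells, S phase 7.42% and 9.22%, and G2/M 36.5% and 81.5%; 335 of 1427 TGR and 168 of 281 control G1 cells lay within 0.05 of the score cut. How far depth and free RNA set these calls was not tested. In the TGR library Tfrc was at 19.8 CPM in G1, 25.3 in S and 21.8 in G2/M. In the control library it was at 95.8 CPM in G1, 144 in S and 139 in G2/M. The log2 ratio was thus -2.27 in G1 (-2.63 to -1.91), -2.49 in S and -2.68 in G2/M, where 26.1%, 25.6% and 32.9% of genes were called.

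The G1 value rests on where the phase cut falls. With phases called on all UMIs of a cell, the control G1 class shrank to 123 cells holding 3 Tfrc UMIs, against 1283 TGR cells holding 149, and the log2 ratio turned to 1.07 (-0.49 to 3.38). Control cells called G1 on thinned counts were uneven in Tfrc. Split into 3 equal parts by UMIs per cell, they had 26.3 CPM in the smallest (8.54 to 61.4), 64.6 in the middle and 137 in the largest (108 to 171). Those smaller 2 parts were the ones, among the 9 control groups, whose intervals overlapped with that of any of the 9 TGR groups. Tfrc in control G2/M cells was 104, 126 and 158 CPM from the smallest to the largest part, while TGR G1 cells had 16.5, 17.7 and 22.01 CPM.

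**Figure D2:**
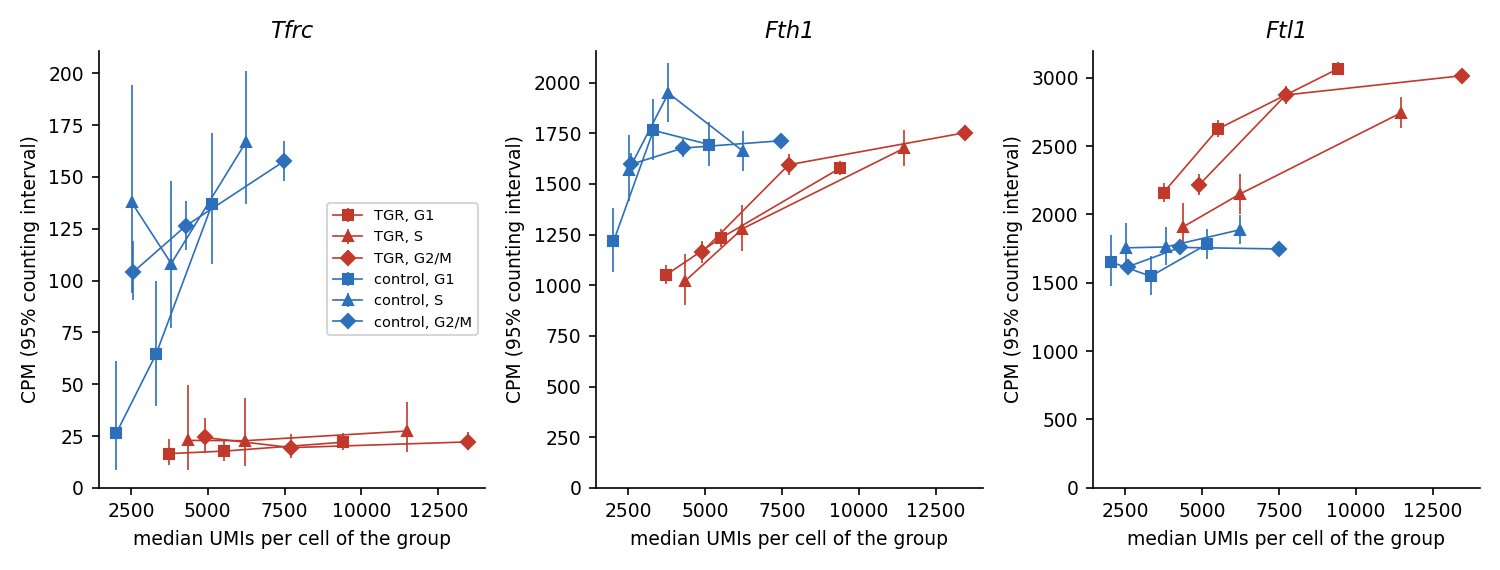
Level of Tfrc, Fth1 and Ftl1 (CPM, 95% counting interval) against the median UMIs per cell, in 18 groups of cells (each library and phase cut into 3 equal parts by UMIs per cell; lines join the parts of a phase). Tfrc climbs with UMIs per cell in control G1 and G2/M cells and stays between 16.5 and 27.4 CPM in TGR groups; both ferritin chains climb in TGR.

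Genes most like Tfrc were sought among 2257 genes with at least 50 CPM, by Pearson's r of log2(CPM + 5) over these 18 groups, which share libraries and differ in depth. The highest were Uck2, a uridine-cytidine kinase of nucleotide salvage (r = 0.984), Pdap1 (0.976), the RNA-binding protein gene Ybx1 (0.972) and the chaperone gene Hsp90aa1 (0.969). Dnajc19 of mitochondrial protein import, Ndufc1 of respiratory complex I, Taf10 of TFIID and the nuclear transport GTPase gene Ran followed at 0.969 to 0.965. All 8 were lower in TGR, by 1.55-fold (Taf10) to 2.67-fold (Hsp90aa1). They were picked for likeness to Tfrc over groups of both libraries, so that direction follows from the choice and is no separate result. Within the 9 control groups their r with Tfrc was 0.912 to 0.964, and within the 9 TGR groups, where Tfrc varied little, it was 0.0940 to 0.687. Over the same 18 groups r with Tfrc was 0.623 for Fth1 and -0.687 for Ftl1. Within the 9 control groups it was 0.676 for Fth1 and 0.650 for Ftl1, and within the 9 TGR groups 0.350 and 0.0325. The negative value for Ftl1 thus came from the difference between the libraries and was not seen within either.

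Slc11a2 (ENSMUSG00000023030, chr15:100387898-100425072, minus strand), the divalent metal transporter of the same endosomes, was at 14.0 CPM in TGR (275 UMIs) and 15.4 CPM in control (227 UMIs), a log2 ratio of -0.14 (-0.40 to 0.12). It was not called in all cells, and its ratio was 0.77 (-0.15 to 1.86) in G1, on 10 control UMIs, and -0.41 (-0.77 to -0.06) in G2/M. The gene overlaps Gm5475 on the other strand, which had 1 UMI in TGR and 0 in control.

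Ferritin was the most abundant message of the group, found in nearly every cell, and its chains parted in TGR. Ftl1 (ENSMUSG00000050708, chr7:45457944-45459884, minus strand) was at 2779 CPM in TGR (54728 UMIs) and 1734 CPM in control (25535 UMIs), 1.60-fold higher in TGR (1.58 to 1.63). Fth1 (ENSMUSG00000024661, chr19:9980598-9985098, plus strand) was at 1488 CPM in TGR (29303 UMIs) and 1679 CPM in control (24729 UMIs), a log2 ratio of -0.17 (-0.20 to -0.15), which is about the median of all genes. Ribosomal protein genes took more of the TGR total: with totals that leave out ribosomal protein and mitochondrially encoded genes every log2 ratio moved up by 0.27, the median of all genes became 0.11, higher genes went to 63.2% of those called in place of 29.9%, and Fth1 turned to 0.10. The light chain's share of all ferritin UMIs does not depend on the total, and it was 65.1% in TGR (64.8 to 65.5%) and 50.8% in control (50.4 to 51.2%). That share compares the libraries with each other; the chains' messages may be captured with unlike efficiency.

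The shift to light chain was seen in each phase and depth class. Its share was 66.7% in TGR G1 cells and 50.9% in control G1 cells, 62.6% and 51.4% in S phase, and 63.8% and 50.7% in G2/M. Among cells of 1500 to under 4000 UMIs it was 67.0% in TGR and 50.5% in control, and among cells of at least 8000 UMIs it was 63.9% and 50.02%. Thinned to 1500 UMIs, more light than heavy chain UMIs were seen in 66.3% of TGR cells and 41.7% of control cells that held any ferritin UMI. The level of Ftl1 itself was 1.5-fold or more higher in G1 (log2 0.72) and G2/M (0.72), but not in S phase (0.41), on 3554 TGR and 2277 control UMIs. By depth its log2 ratio was 0.39 among cells of 1500 to under 4000 UMIs, 0.49 among cells of 4000 to under 8000 and 0.84 among cells of at least 8000, so it passed 1.5-fold in the last of these classes alone.

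Near-identical copies leave the ferritin counts less certain than their size implies. The only other ferritin gene with UMIs among those looked up, Gm10116, an Ftl1 pseudogene, had 27.7 CPM in TGR (546 UMIs) and 14.0 CPM in control (206 UMIs), and Fthl17a to Fthl17f had none. How reads that fit several ferritin copies were counted is not given in the sources used here.

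Heavy and light chains together came to 4266 CPM in TGR and 3412 CPM in control, 1.25-fold higher in TGR (1.24 to 1.26). The size of this difference went with depth: it was 0.987-fold (0.953 to 1.02) among cells of 1500 to under 4000 UMIs, 1.08-fold among cells of 4000 to under 8000 and 1.41-fold (1.38 to 1.43) among cells of at least 8000 UMIs. In TGR, Fth1 was at 1056, 1278 and 1688 CPM in those 3 classes and Ftl1 at 2143, 2585 and 2992. In control, Fth1 was at 1605, 1741 and 1665 CPM and Ftl1 at 1637, 1836 and 1667. So TGR cells with few UMIs had less heavy chain than control cells of like depth (log2 -0.60), and for TGR cells with many the difference was 0.02 (-0.02 to 0.06).

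Per Tfrc message a TGR cell population held 202 ferritin messages and a control population 25.1, an 8.07-fold difference (7.26 to 8.9998). It was 6.07-fold in G1 (4.71 to 7.78), 6.23-fold in S and 8.35-fold in G2/M with phases from thinned counts. With phases from all UMIs the G1 cells held 218 ferritin messages per Tfrc message in TGR and 341 in control, a ratio of 0.640 (0.130 to 1.91), on 3 control Tfrc UMIs. The value over all cells is the product of the 6.45-fold lower Tfrc and the 1.25-fold higher ferritin.

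**Figure D3:**
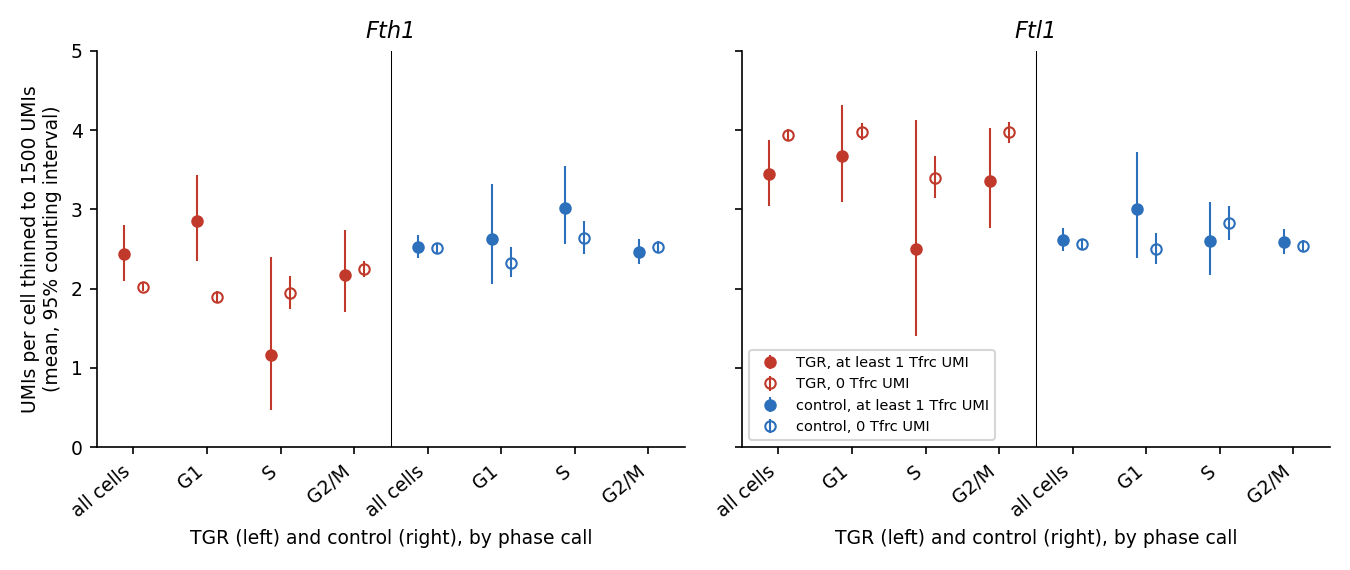
Mean Fth1 and Ftl1 UMIs per cell, with every cell thinned to 1500 UMIs, in cells with at least 1 Tfrc UMI (filled) and with none (open), for TGR (left of the line) and control (right) by phase call; bars are 95% counting intervals. In control the filled and open points of all cells lie at 2.53 and 2.52 (Fth1) and 2.61 and 2.56 (Ftl1).

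Ferritin was also compared within each library between cells with and without a Tfrc UMI. In TGR the 79 thinned cells with a Tfrc UMI had 2.43 Fth1 UMIs per cell and the 2467 without had 2.02. That is a ratio of 1.20 (1.03 to 1.39). For Ftl1 the means were 3.44 and 3.93, a ratio of 0.875 (0.773 to 0.988). Among the 79 cells Fth1 had a standard deviation of 3.01 UMIs, more than counting error gives. The intervals of this paragraph leave such variation among cells out and may be too narrow. In control the 476 cells with a Tfrc UMI and the 2560 without differed 1.005-fold in Fth1 (0.945 to 1.07) and 1.02-fold in Ftl1 (0.960 to 1.09). The TGR ratio for Fth1 changed side with depth and that for Ftl1 stayed below 1: at 3000 UMIs per cell they were 0.921 (0.840 to 1.01) and 0.910 (0.851 to 0.972), and a second random thinning to 1500 gave 1.20 for Fth1 and 0.979 for Ftl1 (0.863 to 1.11). In control they were 1.07 for Fth1 (1.03 to 1.12) and 1.03 for Ftl1 (0.993 to 1.07) at 3000 UMIs. Read the other way, Tfrc UMIs per 100 cells were 3.77, 2.94 and 2.59 from the lowest to the highest of 3 equal parts by ferritin in TGR, and 15.9, 19.4 and 19.7 in control, with overlapping intervals among neighbouring parts. At 1500 UMIs most cells hold no Tfrc UMI, so a weak relation would not be detectable.

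Release of stored and heme-bound iron gave the group's largest fold difference. Hmox1 (ENSMUSG00000005413, chr8:75093621-75100589, plus strand), the inducible heme oxygenase that frees iron from heme, had 242 UMIs in TGR and 15 in control. Its level was 12.3 CPM in TGR (10.8 to 13.9) and 1.02 CPM in control (0.570 to 1.68), 11.8-fold higher in TGR (7.17 to 21.9). Ncoa4 (ENSMUSG00000056234, chr14:32159865-32179855, plus strand), the receptor that takes ferritin to the lysosome, had 8 UMIs in TGR and 6 in control, too few for a comparison.

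Hmox1 UMIs were seen in few TGR cells of each phase; at this level and depth a cell without a UMI may still hold the message. A UMI was found in 161 TGR cells (6.32%, 5.41 to 7.34%) and 15 control cells (0.480%, 0.269 to 0.790%); 120 of the TGR cells held 1 UMI, 28 held 2 and 13 held 3 to 9, while each control cell held 1. Thinned to 1500 UMIs the shares were 1.26% and 0.0988%. By phase it was found in 5.89% of TGR G1, 6.35% of S and 6.99% of G2/M cells, and in 0.356% of control G1 and 0.566% of control G2/M cells. None was found in 280 control S cells, which allows up to about 1.07% of cells with a UMI and sets no limit on cells that express the gene. That limit is 3 divided by the 280 cells, not the exact interval used for the other shares. TGR cells with an Hmox1 UMI were deeper, with a median of 9593 UMIs against 6083 in TGR cells without.

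Macrophages, which express Hmox1 and ferritin strongly, were looked for by their markers. Of 12 macrophage and monocyte markers 8 were at 0 in TGR and 7 in control. Adgre1, C1qa, C1qb, C1qc, Cd14, Spic and Vcam1 had no UMI in either library, and Lyz2 had 0 in TGR and 1 in control. The others were detected: Cd68 had 67 UMIs in TGR and 19 in control, Fcer1g 53 and 107, Tyrobp 27 and 33, and Csf1r 1 in each. Summed, the 12 markers were at 7.51 CPM in TGR and 10.9 CPM in control, and at 22.5 CPM in TGR cells with an Hmox1 UMI. Without the cells holding any such marker the Hmox1 log2 ratio was 3.47, against 3.56 with them.

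TGR cells with an Hmox1 UMI also held more ferritin. Fth1 was at 2413 CPM in the 161 cells with an Hmox1 UMI and 1391 CPM in the 2385 without, 1.74-fold higher (1.68 to 1.79), and Ftl1 was at 4065 and 2644 CPM, 1.54-fold higher (1.5005 to 1.58). Restricted to cells of at least 4000 UMIs the folds were 1.72 and 1.53. That kept 150 of the 161 and 2000 of the 2385 cells and set no upper limit, so it did not match the sets in depth. Tfrc was at 17.7 CPM in cells with an Hmox1 UMI and 21.4 CPM in those without, a ratio of 0.825 (0.560 to 1.18). Of 3700 genes with at least 25 CPM in either set, and leaving out names of the Gm and Rik kind, the highest folds after 2 granzyme genes were those of the heat shock genes Hspa1a (4.92) and Hsph1 (2.99), then Irf4 (2.22), Alcam (2.18), Batf3 (2.15) and the oxidase gene Ero1l (1.996). Under that level, Srxn1 was 3.58-fold higher (1.91 to 6.61) and Slc7a11 4.54-fold (2.44 to 8.50). These genes were taken by size of fold after their values were seen, and the granzyme genes Gzmc and Gzma above them rest on single cells, which held 52 of 54 and 55 of 60 UMIs.

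**Figure D4:**
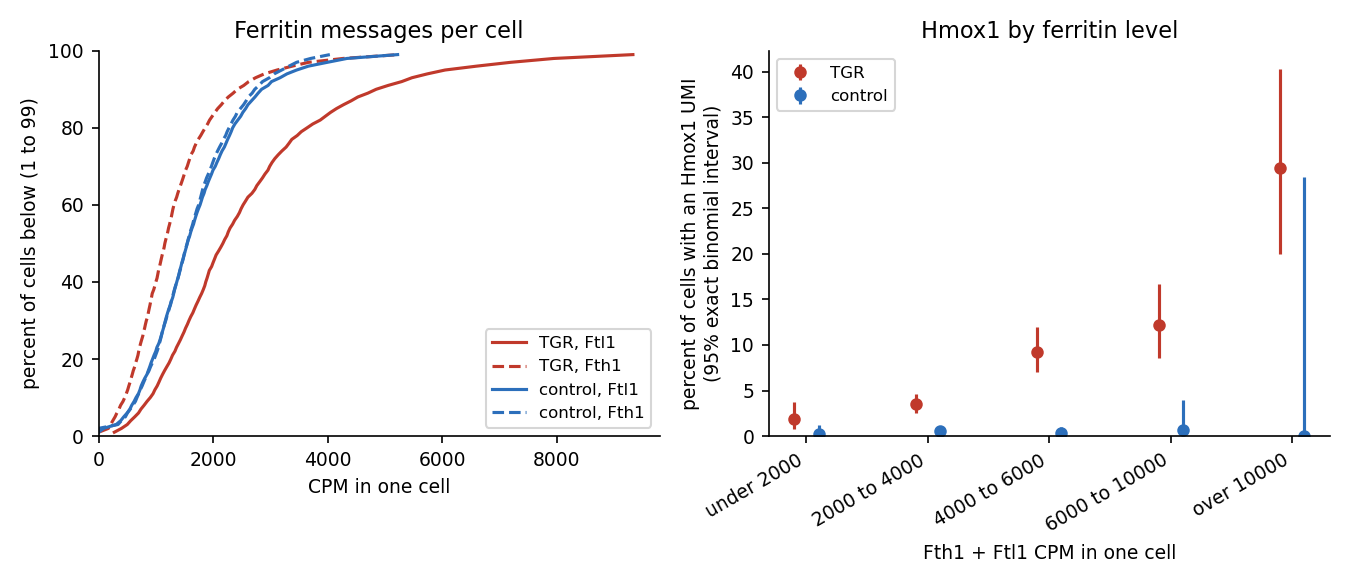
Left, cumulative share of cells by Ftl1 (solid) and Fth1 (dashed) CPM in one cell, from the 1st to the 99th percentile; right, percent of cells with an Hmox1 UMI (95% exact binomial interval) by total ferritin CPM of the cell. The TGR Ftl1 curve reaches furthest right, and the TGR share with Hmox1 climbs to 29.4% over 10000 CPM.

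Total ferritin per cell differed more in the upper tail than at the median. Total ferritin per cell had a median of 3396 CPM in TGR and 3175 CPM in control, but a 95th percentile of 8630 and 5957 CPM and a highest value of 29781 and 14376 CPM. The chains differed in this: the median for Ftl1 was 2170 CPM in TGR and 1547 in control and its 95th percentile 6051 and 3459, while for Fth1 the median was 1156 and 1546 CPM and the 95th percentile 3116 and 3197. Above 10000 CPM, a line drawn after the values were seen, lay 85 TGR cells (3.34%, 2.68 to 4.11%) and 11 control cells (0.352%, 0.176 to 0.629%), with 12.2% and 1.12% of their library's ferritin UMIs. Thinned to 1500 UMIs, 116 TGR cells (4.56%) and 19 control cells (0.626%) held at least 15 ferritin UMIs. The 85 TGR cells were 46 in G1, 6 in S and 33 in G2/M, with a median of 8194 UMIs against 6180 in the other TGR cells.

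Hmox1 followed ferritin across the whole TGR range, not in the tail alone. The share of TGR cells with an Hmox1 UMI was 1.82% under 2000 CPM of ferritin, 3.49% at 2000 to 4000, 9.25% at 4000 to 6000, 12.2% at 6000 to 10000 and 29.4% (20.0 to 40.3%) above that. Median UMIs per cell also went up over these classes, from 4860 to 8194. In control it was 0.218%, 0.605%, 0.286% and 0.719% over the first 4 classes and 0 of 11 cells above. Tfrc in TGR was 26.5 CPM (20.1 to 34.3) in the lowest class and 16.9 CPM (8.99 to 28.9) in the highest, with overlapping intervals.

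Genes of the NRF2 and BACH list were compared between the ferritin-rich and the other TGR cells after values were seen. Of 11 that reached 10 CPM in either set 7 were called higher in the ferritin-rich cells and none lower. Over all 6706 genes at that level 4.13% were called higher. Nqo1, Srxn1 and Slc7a11 reached 10 CPM in the ferritin-rich cells alone, as did Bach1, which was not called. A gene that enters in that way can be called higher but not lower, so the count does not measure a direction. The ferritin-rich cells were the deeper ones, and the part of depth in these values was not tested. Srxn1, which repairs oxidised peroxiredoxins, was found in 12 of the 85 cells (14.1%) and 1.63% of the others. The cystine transporter gene Slc7a11 was found in 11.8% and 1.54%, Nqo1, a quinone reductase, in 20.0% and 4.59%, and Gclm, a subunit of the enzyme that starts glutathione synthesis, in 56.5% and 24.3%. In CPM, Gclm was at 135 in the ferritin-rich cells and 41.5 in the others, 3.25-fold higher (2.63 to 4.00), and Txnrd1, thioredoxin reductase, at 66.2 and 40.8, 1.62-fold higher (1.20 to 2.16). Nfe2l2, which encodes NRF2, was at 31.2 and 33.6 CPM and Bach2 at 31.2 and 42.4 CPM, both with intervals that include equality. Macrophage and monocyte markers had a UMI in 9 of the 85 cells (10.6%) and in 3.17% of the others. Summed, they were at 64.9 CPM in the ferritin-rich cells and 5.18 CPM in the others. Of their 50 UMIs in the ferritin-rich cells 28 were in 1 cell, and the part of these markers in the values above was not tested. Without the cells above 10000 CPM in either library, Ftl1 was 0.57 higher on the log2 scale and Hmox1 3.21, and neither was then called, Ftl1 for its fold and Hmox1 because its level fell to 9.67 CPM.

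The messages of both sensors were scarce, under 10 CPM in each library. Aco1 (ENSMUSG00000028405, chr4:40143081-40198338, plus strand), cytosolic aconitase, which becomes iron regulatory protein 1 when it lacks its iron-sulfur cluster, was at 4.82 CPM in TGR (95 UMIs) and 3.33 CPM in control (49 UMIs), a log2 ratio of 0.53 (0.02 to 1.06), an interval that excludes equality; with totals free of ribosomal protein and mitochondrially encoded genes the ratio was 0.80 and Aco1 was called higher. Ireb2 (ENSMUSG00000032293, chr9:54863789-54912530, plus strand), iron regulatory protein 2, which is degraded when iron is plentiful, was at 8.38 CPM in TGR (165 UMIs) and 9.57 CPM in control (141 UMIs), a log2 ratio of -0.19 (-0.53 to 0.14). Both work through protein state, which these counts do not measure.

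Slc25a37 (ENSMUSG00000034248, chr14:69241848-69285112, minus strand), mitoferrin-1, which carries iron into mitochondria, was at 9.85 CPM in TGR (194 UMIs) and 8.76 CPM in control (129 UMIs), a log2 ratio of 0.17 (-0.16 to 0.50). Its antisense neighbours Gm27222 and Gm27223 had no UMI in either library. The related carrier Slc25a28, mitoferrin-2, was at 16.04 CPM in TGR and 12.9 CPM in control.

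The other genes of iron handling were read in 10 lists, given here beside the 21.8% of all genes called lower and the 9.33% called higher in TGR. Whether a list stands apart from other genes was not tested. Genes that reached 10 CPM in a single library, such as Exoc6 in TGR and Dna2 in control, could be called in a single direction only.

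**Figure D5:**
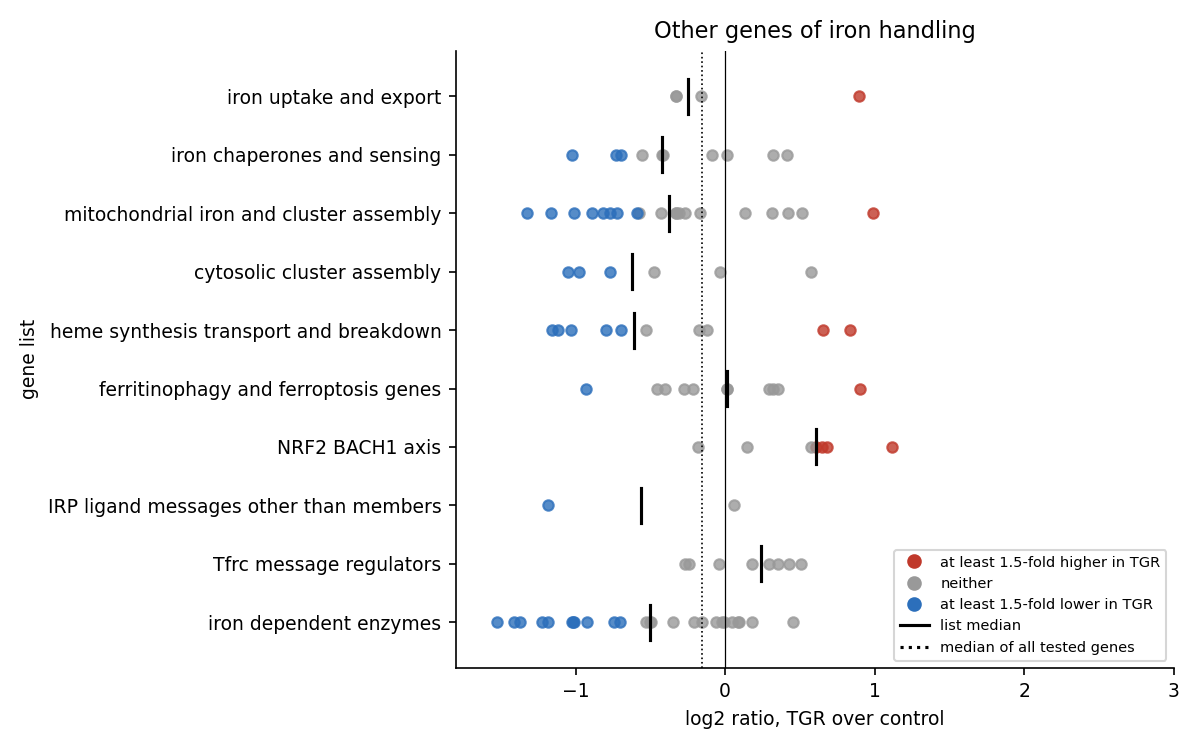
Log2 ratio, TGR over control, of the genes of each list that reached 10 CPM; colour marks genes at least 1.5-fold higher or lower, the short line is the list median and the dotted line the median of all genes (-0.16). The NRF2 and BACH list has its median at 0.60 and cytosolic cluster assembly at -0.62.

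Of 4 uptake and export genes at 10 CPM 1 was called, Exoc6, an exocyst subunit that recycles the transferrin receptor in red cell precursors, at 13.5 CPM in TGR and 7.26 CPM in control (log2 0.89); Snx3 (-0.33) and Vps35 (-0.33), which sort the receptor back from endosomes, were not. Slc40a1, the iron exporter ferroportin, had no UMI in either library. Of 10 chaperone and sensing genes 3 were lower, namely the iron chaperone Pcbp1 (log2 -0.73) and 2 subunits of cullin ligases, Rbx1 (-1.02) and Skp1a (-0.70). Pcbp2 was at 502 CPM in TGR and 377 CPM in control (0.41), and Fbxl5, which marks iron regulatory protein 2 for degradation, at 13.1 and 10.4 CPM (0.32).

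Mitochondrial iron and cluster assembly had 8 of 20 genes lower and 1 higher, with a median of -0.38. Tmem14c, which moves a heme precursor, was at 94.3 CPM in TGR and 237 CPM in control (log2 -1.33), and Glrx5, which passes on assembled clusters, at 69.8 and 157 CPM (-1.17). The scaffold Iscu (-0.82) and Bola3 (-0.89) were also lower, and the co-chaperone Hscb was higher (0.99). Cytosolic assembly had 3 of 6 lower, namely Ciapin1 (-1.05), Nubp2 (-0.98) and Fam96a (-0.77), and none higher.

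Heme genes had 5 of 10 lower and 2 higher. Alad (log2 -1.12) and Urod (-0.80) of heme synthesis were lower, as were Blvra (-1.03) and Pgrmc2 (-0.69). Slc48a1, which exports heme from endosomes and lysosomes, was at 58.2 CPM in TGR and 32.7 CPM in control (0.83), and Blvrb, a biliverdin reductase, at 19.4 and 12.4 CPM (0.65). The constitutive oxygenase Hmox2 was at 39.6 CPM in TGR and 43.0 CPM in control (-0.12), so of the heme oxygenases Hmox1 alone was called.

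Enzymes that need iron had 11 of 25 genes lower and none higher, with a median of -0.50. Dna2 (log2 -1.52) and the ribonucleotide reductase subunits Rrm1 (-1.01) and Rrm2 (-1.02) of DNA synthesis, and Cyc1 (-1.41), Cycs (-1.37) and Sdhb (-1.23) of respiration, were among them; Uqcrfs1 was not (-0.06). In G1 cells 11 of 25 were lower too, with a median of -0.66, where the median of all genes was -0.14. Rrm1, Rrm2 and Brip1 of this list were also among the S phase genes that set the phase calls. The G1 classes were unlike in those S phase genes, with a median of 1 UMI per thinned cell in TGR and 3 in control. The G1 values therefore cannot show whether the difference holds apart from the cell cycle.

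Of 7 NRF2 and BACH genes at 10 CPM 4 were higher and none lower, namely Mafg, the small partner of NRF2 and BACH factors, at 36.9 CPM in TGR and 17.04 CPM in control (log2 1.11), Bach2 (0.68), and the glutathione synthesis genes Gclc (0.65) and Gclm (0.60). Nfe2l2 (0.57), Keap1 (0.15) and Txnrd1 (-0.18) were not called. In G1 cells 2 of the 7 were higher, with a median of 0.44. The other genes of the list were under 10 CPM and are named after their values were seen. Nqo1 had 141 UMIs in TGR and 11 in control, Srxn1 58 and 5, and Slc7a11 52 and 15. Bach1 had 171 and 44 (log2 1.53, 1.05 to 2.05), and Mafk 144 and 85 (0.34, -0.06 to 0.75). The ferritinophagy and ferroptosis list had 1 of 11 higher, the amino acid transporter subunit Slc3a2 (0.90), and 1 lower, the phospholipid acyltransferase Lpcat3 (-0.93); Gpx4, which reduces lipid peroxides, was at 382 CPM in TGR and 506 CPM in control (-0.40).

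Dhdds, from the list of other messages bound by iron regulatory proteins, was at 15.7 CPM in TGR and 15.1 CPM in control (log2 0.06). Of 8 factors at 10 CPM that are known to act on Tfrc transcription or message stability none was called: Hif1a was at 99.7 CPM in TGR and 70.1 CPM in control (0.51), Rc3h2 (Roquin-2) at 24.2 and 17.99 CPM (0.43), Zfp36l1 at 48.99 and 39.99 CPM (0.29), and Myc at 28.8 and 34.7 CPM (-0.27). Zc3h12a, also of that list, was under 10 CPM and so could not be called. It was at 6.55 CPM in TGR (129 UMIs) and 3.94 CPM in control (58 UMIs). Its log2 ratio was 0.73 (0.28 to 1.21), an interval that excludes equality.

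The list counts lean on the scaling. With totals free of ribosomal protein and mitochondrially encoded genes, lower genes numbered 4 of 20 in mitochondrial assembly, 2 of 6 in cytosolic assembly, 3 of 10 in heme genes and 9 of 25 among iron enzymes. Higher genes then numbered 3 of 20, 1 of 6, 2 of 10 and 1 of 25 in those lists, 5 of 7 in the NRF2 and BACH list and 3 of 8 among Tfrc regulators. Of all 6667 genes 771 were lower and 1325 higher under that scaling. The median of the uptake and export list turned to 0.02 under that scaling, and it was -0.25 with all UMIs.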

How the data were processed

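Droplet 10x (v2 kit) libraries of TGR and control CD8 T cells, 1 each, were analysed from the deposited matrices of raw counts (UMIs per gene and barcode, not normalized). The submitters' processing notes name Cell Ranger 2.2, Seurat 3 and mm10 without roles; filters and strand handling are not given in the sources used here. Cells with at least 500 genes and under 10% mitochondrially encoded UMIs were kept (2546 TGR, 3127 control), with no doublet calling. Counts were summed per library and divided by total UMIs; log2 ratios used 0.5 added UMIs, with exact conditional intervals, and were checked on simulated counts. For per-cell measures cells were thinned to 1500 UMIs, which left out 0 TGR and 91 control cells; phases were scored on thinned counts (scanpy 1.11.5). Alternatives used edgeR 4.0.16 and DESeq2 1.42.0 factors only for scaling, since 1 library per condition allows no test. Iron-responsive elements came from GENCODE M21 transcripts; 27645 of 27998 gene IDs matched. From each list the text names the 2 largest log2 ratios, the 2 highest levels and called genes numbering 5 or fewer, with further examples picked after their values were seen. Members, lists and tests were chosen with earlier results of these data known. Some genes of the lists are counted but not reported here by name.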

Additional observations from a re-analysis of the deposited data

How the results depend on the processing

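No paired analysis was possible because each condition had 1 library, and without replicates the depth sets counting error only. The Tfrc log2 ratio, -2.69, was -2.42 with totals free of ribosomal protein and mitochondrially encoded genes and -2.27 in G1 cells alone. Tfrc in G1 reversed to 1.07 with phases from all UMIs; the control class then held 3 Tfrc UMIs. Total ferritin, 0.32 on the log2 scale, was 0.36 under TMM, 0.34 under DESeq2 factors, 0.59 under totals free of ribosomal and mitochondrial genes, 0.23 thinned to 1500 UMIs, 0.34 with no mitochondrial limit, 0.30 without the 5% of cells with most UMIs and 0.25 as a mean of per-cell CPM. Added after seeing the data, leaving out cells over 10000 CPM of ferritin gave 0.20 and cut the members called to 1, Tfrc. Ferritin per Tfrc, 3.01, was 2.79 thinned, 2.60 in G1 and, with phases from all UMIs, -0.64 in G1 (-2.94 to 0.94). Fth1 in TGR cells with a Tfrc UMI over those without, 0.26, reversed to -0.12 at 3000 UMIs, and in control was 0.10 there against 0.01. The Fth1 log2 ratio, -0.17, reversed to 0.10 under totals free of ribosomal and mitochondrial genes. Members called were 2 at a minimum of 50 CPM (Tfrc, Ftl1) and at 2-fold (Tfrc, Hmox1), 4 with Aco1 added under the totals free of ribosomal and mitochondrial genes, and 3 under the other alternatives run apart from the one named. Causes were not tested.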
